A study of Mus musculus with 4 samples.

Results

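The Ifng locus was described here as the set of DNase I peaks whose midpoint lies between 117780000 and 117960000 on mouse chromosome 10 (build mm9), a window of 180 kb around the gene. The gene itself spans about 117878000 to 117883000, bounds given only to the nearest kb. The peaks were chosen by position alone, from the 4 deposited peak lists, and numbered 29 of 84735. Peaks that overlapped by at least 1 bp were merged, which left 13 sites of 38986 in the whole series. The cells were CD8+ T cells from mouse spleen, sorted as GFP+ TCRbeta+ with high CD62L and low to intermediate CD44, and then kept for 72 h with IL-7 and IL-15, which support survival and homeostatic division of T cells. The wild-type (WT) cells came from mice with hCD2-Cre, the Rosa26-lsl-GFP reporter and intact Tcf1 and Lef1. The double-knockout (DKO) cells, labelled Tcf1-/-Lef1-/-, came from mice with the same Cre and reporter in which both genes were floxed. Human CD2 sequences drive this Cre in lymphoid cells, and GFP marks cells in which it has acted. There were 2 libraries of each genotype. The labels give no age. They do not tie the replicates to different animals, and their spread may therefore be technical.

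Ifng encodes interferon gamma, the cytokine with which CD8+ T cells, helper T cells and natural killer cells activate macrophages and raise antigen presentation. Naive CD8+ T cells make little of it, and memory and effector cells make it quickly. Its expression is known to depend on the promoter and on conserved non-coding sequences spread over a long stretch on both sides of the gene, where T-bet, Eomes, Runx3 and STAT proteins bind. The insulator protein CTCF is known to bind towards both edges of the mouse locus and within the gene, and to fold it into loops. Tcf1 (encoded by Tcf7) and Lef1 are related DNA-binding proteins that maintain naive and memory T cells. In the RefSeq gene order, Iltifb lies on the side before Ifng with 6 pseudogenes between them, and the long non-coding RNA gene Ifngas1 is the next gene after it.

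The Ifng promoter is shown because the site at the gene start was the 1 site of the window listed in both DKO libraries and in neither WT library. The sequence is that of RefSeq build GRCm38.p6, plus strand, chr10:118440796-118441045, and stops at the last base before the gene start. Capitals mark matches to a TATA box (TATAAA) and to a STAT motif (TTCNNNGAA).
Ifng promoter, 250 bases: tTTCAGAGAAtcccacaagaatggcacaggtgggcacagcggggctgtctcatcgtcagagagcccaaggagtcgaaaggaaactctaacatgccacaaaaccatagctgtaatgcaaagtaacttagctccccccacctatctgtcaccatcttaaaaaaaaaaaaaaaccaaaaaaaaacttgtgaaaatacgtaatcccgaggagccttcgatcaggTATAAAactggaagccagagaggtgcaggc
The TATA box match lies at -30 to -25, counted with -1 as the last base shown, and 12.4% of 32851 promoters of this length hold one on either strand. The STAT match lies at -249 to -241 and reads the same motif on both strands, and 7.02% of the promoters hold such a match. No match was found on either strand to TCF/LEF letters (CTTTG followed by AA, AT, TA or TT, present in 14.8% of promoters), to RUNX letters (TGTGGT, 14%), to T-box letters (GGTGTG, 16.3%) or to AP-1 letters (TGANTCA, 6.75%). A match is only a run of letters, and none was tied to a peak, since the peaks are placed on mm9 and the promoter on another build.

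The 13 sites were merged from the 4 lists, so that each library listed a part of them follows from how they were built. Of these sites, 6 were listed in 1 library and 3 in all 4. Of the 13 sites, 4 lay before the gene start, 1 inside the gene and 8 after the gene end. The WT libraries listed 6 and 3 of them, and the DKO libraries 12 and 7, for replicates 1 and 2. The 3 sites of WT replicate 2 were all among the 6 of WT replicate 1, and those 6 were all among the 12 of DKO replicate 1. DKO replicate 2 shared 6 of its 7 sites with DKO replicate 1. The number of sites rose with the length of the whole list across all 4 libraries. The nesting of the sites followed it for 3 libraries, at 11073, 17521 and 34788 peaks for WT replicate 2, WT replicate 1 and DKO replicate 1. DKO replicate 2, at 21353 peaks, listed 7 sites but lacked 1 that the shorter WT replicate 1 list held.

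**Figure D1:**
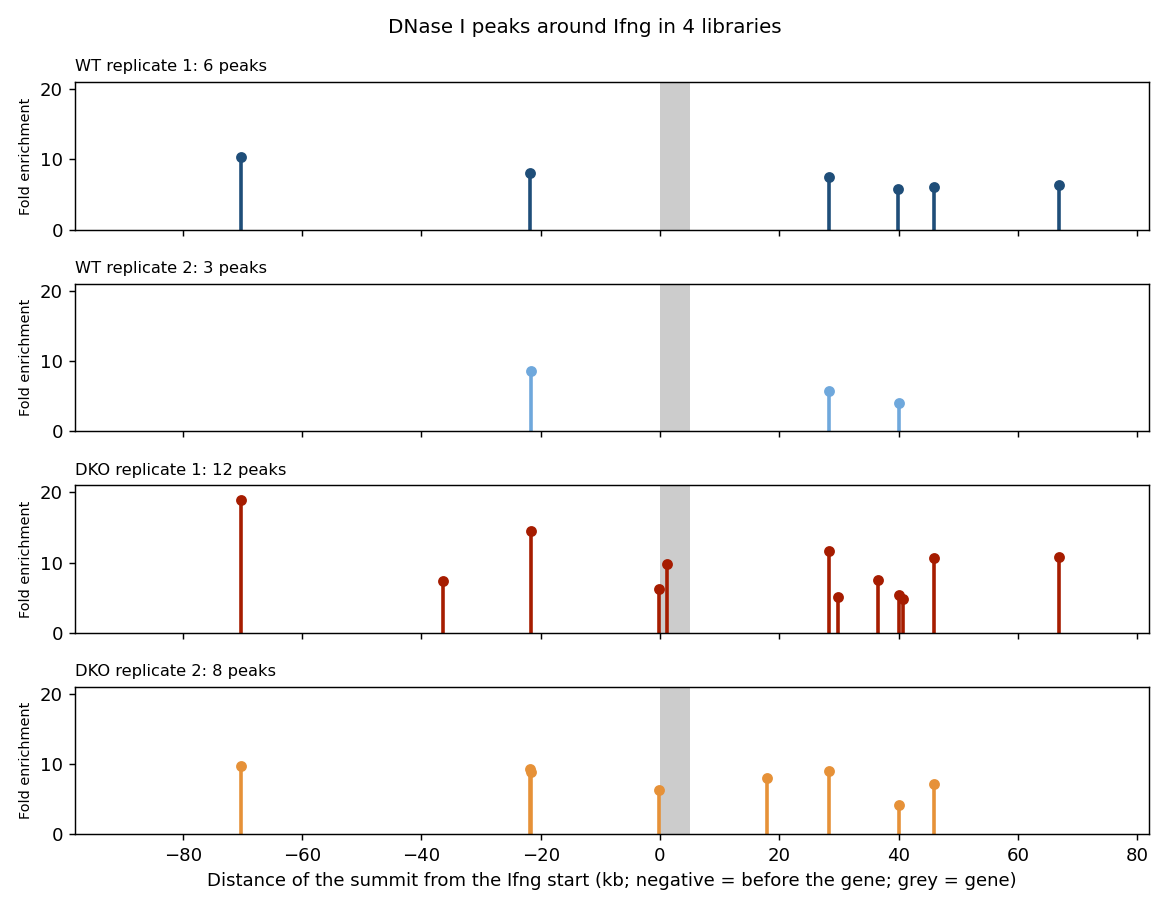
Peaks in each library by distance of the summit from the Ifng start (kb, horizontal) and fold enrichment (vertical, the authors' value, linear); the grey band is the gene. The WT libraries have no peak at or inside the gene, DKO replicate 1 has 2 there and DKO replicate 2 has 1.

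The promoter was listed as accessible in both DKO libraries and in neither WT library. In DKO replicate 1 the peak covered 117877655 to 117877953 (299 bp) with a fold enrichment of 6.20. In DKO replicate 2 it covered 117877847 to 117877934 (88 bp) with a fold of 6.34. The fold is the authors' ratio of summit pileup to local background, with 1 added to each. The summits of these peaks were 3 bp apart, 0.105 and 0.108 kb before the rounded gene start. No value exists for the WT libraries at this place, because a peak list holds only the sites that passed its thresholds.

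The promoter was among the weaker sites of both DKO lists. It stood above 27.1% of the peaks of DKO replicate 1 and 33.5% of those of DKO replicate 2, by −log10 p. Its fold was 32.8% of that of the strongest Ifng site in DKO replicate 1 and 64.8% in DKO replicate 2. The pileups solved from the deposited values were 17 fragments (95% exact Poisson interval 9.90 to 27.2) and 14 fragments (7.65 to 23.5). Such intervals, here and below, cover at most counting error and treat a pileup as a plain count at a fixed place. They take no account of its choice as a summit that passed the thresholds of its list. The smallest pileups listed anywhere were 10 and 9 fragments in WT replicates 1 and 2, and 8 in each DKO list. They were found where the local background was lowest. The WT background at the promoter is not known, so these minima do not tell what WT pileup would have been listed there. Of all DKO replicate 1 peaks with a fold from 6 to 7, 72.2% overlapped no peak of either WT list, and for DKO replicate 2 this share was 41.5%. A DKO peak of this size without a WT call was thus common in each DKO list taken alone. In the same bands, 36.4% of the DKO replicate 1 peaks and 92.7% of the DKO replicate 2 peaks were also in the other DKO list, as the promoter was. The share without a WT call among peaks in both DKO lists was not computed.

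Inside the gene there was 1 site, at 117879050 to 117879292 and 1.15 kb after the gene start, and it was listed in DKO replicate 1 alone. Its fold was 9.74 with a pileup of 28 fragments (95% exact Poisson interval 18.6 to 40.5), so it was stronger in that list than the promoter. It stood above 60.6% of the peaks of its list. Of the DKO replicate 1 peaks with a fold from 9 to 10, 65.1% were also listed in DKO replicate 2, and this one was not. Together the promoter and this site were the 2 within 5 kb of the gene, and they gave 10.3% of the 29 peaks. The other peaks lay 5 to 50 kb from the gene (72.4%) or farther away (17.2%).

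Before the gene, the strongest site of the window lay 70.3 kb from the gene start, at 117807580 to 117807765. It had a fold of 10.4 in WT replicate 1, 18.9 in DKO replicate 1 and 9.78 in DKO replicate 2. In each of these 3 libraries it was the strongest peak of the window, and it stood above 87.5, 91.5 and 67.2% of the peaks of its list. WT replicate 2 had no peak there. The 3 summits lay within 30 bp of each other. Among DKO replicate 1 peaks with a fold from 18 to 19, 73.5% were also listed in WT replicate 2, and this one was not.

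The site 21.6 kb before the gene start was listed in all 4 libraries and had 2 summits. The merged site covered 117856057 to 117856594, or 538 bp. Its fold was 8.07 in WT replicate 1, 8.52 in WT replicate 2 and 14.5 in DKO replicate 1. DKO replicate 2 listed it as 2 separate peaks, with folds of 9.25 and 8.95. The summit of WT replicate 1 fell 10 bp from the first of these, and the summits of WT replicate 2 and DKO replicate 1 fell 10 and 3 bp from the other. The 2 DKO replicate 2 summits were 230 bp apart. Peaks of WT replicate 1 and DKO replicate 1 were 452 and 517 bp wide and spanned both positions, while that of WT replicate 2 was 117 bp wide and covered only the one nearer to the gene. This was the strongest Ifng site of WT replicate 2, above 77.0% of that list.

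**Figure D2:**
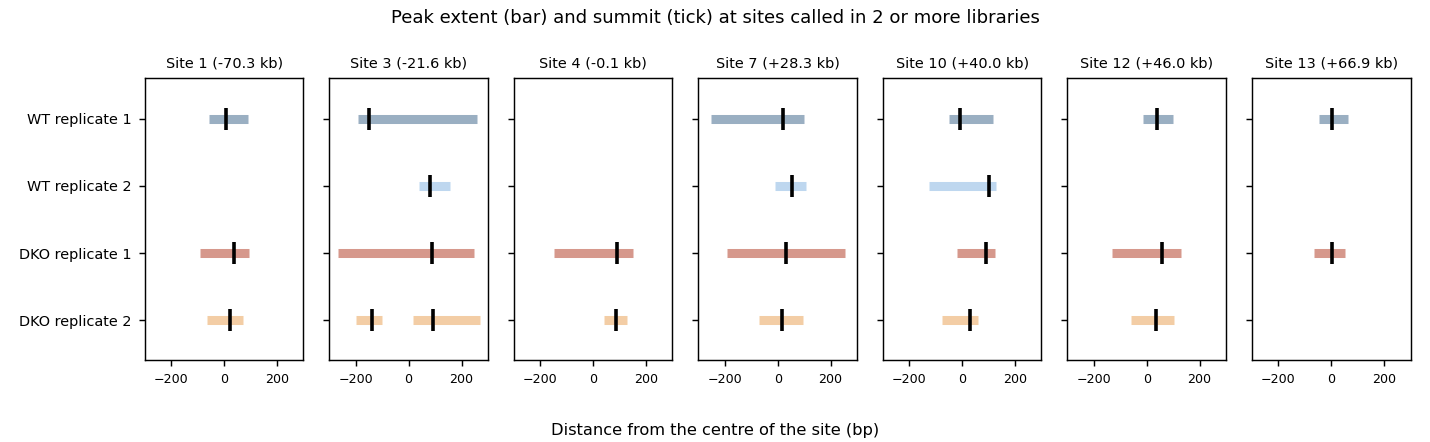
Extent (bars) and summit (ticks) of each peak at the 7 sites listed in 2 or more libraries, in bp from the centre of the merged site. At the site 21.6 kb before the gene the summits fall at 2 positions about 230 bp apart, and at the promoter the 2 DKO summits are 3 bp apart.

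A weaker site lay between the sites at 70.3 and 21.6 kb, 36.3 kb before the gene start at 117841637 to 117841791. It had a fold of 7.40 and was listed in DKO replicate 1 alone. Beyond the site at 70.3 kb no library had any further peak for 229 kb, a stretch that runs on past the edge of the window. Whether reads could be placed in that stretch was not tested.

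After the gene, the site at 28.3 kb from the gene start was the strongest of that side in each of the 4 libraries. It covered 117906038 to 117906544, or 507 bp. Its fold was 7.44 in WT replicate 1, 5.71 in WT replicate 2, 11.7 in DKO replicate 1 and 9.08 in DKO replicate 2. The 4 summits fell within 37 bp. It stood above 61.7, 41.6, 76.2 and 66.8% of the peaks of these lists, in the same order. A narrow neighbour at 29.8 kb (117907817 to 117907923) was listed in DKO replicate 1 alone, with a fold of 5.03.

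The other site listed in all 4 libraries, at 40.0 kb, was weak in each of them. It covered 117917851 to 117918104. Its fold was 5.79 in WT replicate 1, 4.06 in WT replicate 2, 5.44 in DKO replicate 1 and 4.13 in DKO replicate 2. It stood above only 2.1% of the WT replicate 2 peaks and 1.58% of the DKO replicate 2 peaks, just inside the listing minimum of both. In WT replicate 1 it stood above 40.0% of the list and in DKO replicate 1 above 19.3%. Its summits were spread over 110 bp. The site at 40.7 kb (117918663 to 117918751) began 0.558 kb farther on and was listed in DKO replicate 1 alone, with a fold of 4.73.

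The 2 outer sites after the gene were absent from WT replicate 2. At 46.0 kb (117923818 to 117924081) the fold was 6.12 in WT replicate 1, 10.7 in DKO replicate 1 and 7.11 in DKO replicate 2, with summits within 23 bp. At 66.9 kb (117944808 to 117944934) the fold was 6.33 in WT replicate 1 and 10.8 in DKO replicate 1, and both summits fell on the same base. DKO replicate 2 did not list this last site. Whether this site, the one 70.3 kb before the gene and the one inside the gene lie on known CTCF sites was not tested.

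A further 2 sites after the gene were listed in 1 library each. The site at 18.0 kb (117895955 to 117896067) had a fold of 7.99 and was listed in DKO replicate 2 alone. It was the 1 site of the window that DKO replicate 1 did not list, although 96.3% of the DKO replicate 2 peaks with a fold from 7 to 8 were also in the DKO replicate 1 list. The site at 36.5 kb (117914371 to 117914655) had a fold of 7.51 and was listed in DKO replicate 1 alone. Of the 6 sites listed in a single library, 5 lay after the gene start. Of all 13 sites, 8 lay after the gene end and 1 inside the gene, so this was not read as a trait of such sites.

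**Figure D3:**
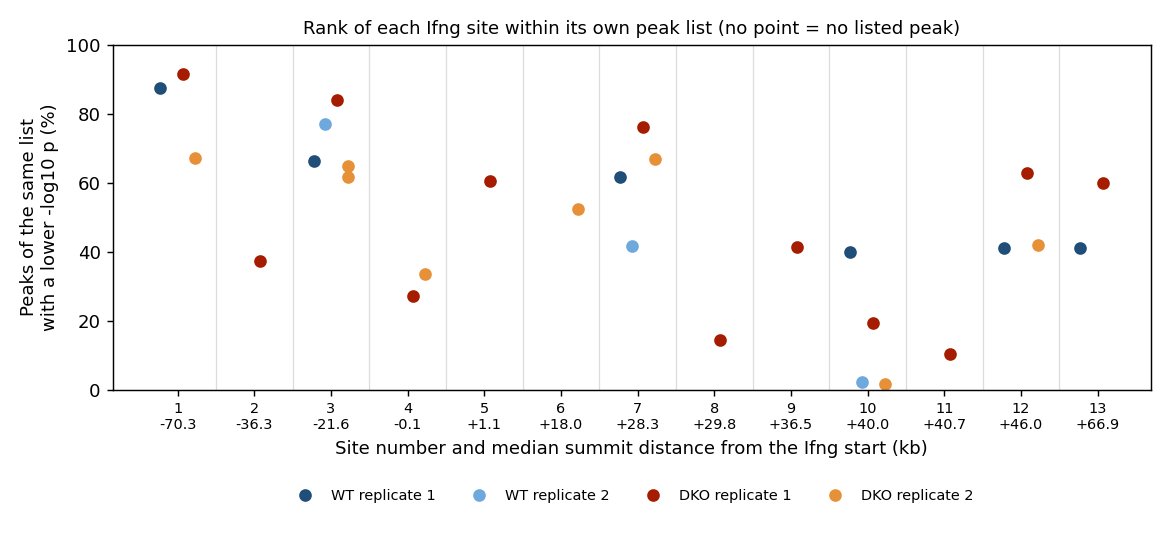
Percent of the peaks of the same list with a lower −log10 p (vertical) at each of the 13 sites, ordered along the chromosome with the median distance from the gene start in kb; a missing point means no listed peak. The sites at -70.3, -21.6 and +28.3 kb stand highest in DKO replicate 1, and the promoter (site 4) stands low in both DKO lists.

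The order of the sites by strength was alike at the top in 3 libraries. In WT replicate 1, DKO replicate 1 and DKO replicate 2 the sites at 70.3 kb before, 21.6 kb before and 28.3 kb after the gene start were the 3 with the highest fold, in this order. In WT replicate 2, where the first was not listed, the other two led. The median fold of the window's peaks was 6.89 and 5.71 in the WT lists and 8.62 and 8.47 in the DKO lists, replicate 1 first. The medians of the whole lists were 6.43, 6.13, 8.50 and 7.24 in the same order, so the peaks of the window were of about middling strength in their lists. By −log10 p the median Ifng peak stood above 51.4, 41.6, 50.7 and 57.1% of its list.

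The comparison of the genotypes asks whether accessibility around Ifng differs when Tcf1 and Lef1 are absent. The WT libraries had 6 and 3 peaks in the window and the DKO libraries 12 and 8, or 4.5 ± 2.12 and 10 ± 2.83 peaks (SD, n = 2 each). The groups did not overlap, and the log2 ratio of the means was 1.15. The exact two-sided permutation test over libraries gave p = 0.33, the smallest that 2 against 2 allows, so it cannot pass 0.05. The whole lists of the 2 genotypes did not overlap in length either, with means of 14297 ± 4559 peaks in WT and 28070.5 ± 9500 in DKO (SD, n = 2 each). As a share of the list the window held 0.0342 and 0.0271% of the WT peaks and 0.0345 and 0.0375% of the DKO peaks. These shares also did not overlap, with means of 0.0307 ± 0.00506% and 0.0360 ± 0.0021% (SD, n = 2 each), but the shares of both replicates 1 were nearly equal. When each list was cut to its 11073 peaks of highest −log10 p, the window held 6 and 3 WT peaks and 3 and 5 DKO peaks. The cut left WT replicate 2 whole and shortened DKO replicate 1 the most. The log2 ratio was then -0.17 (exact permutation p = 1), and the higher number in DKO was no longer seen.

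**Figure D4:**
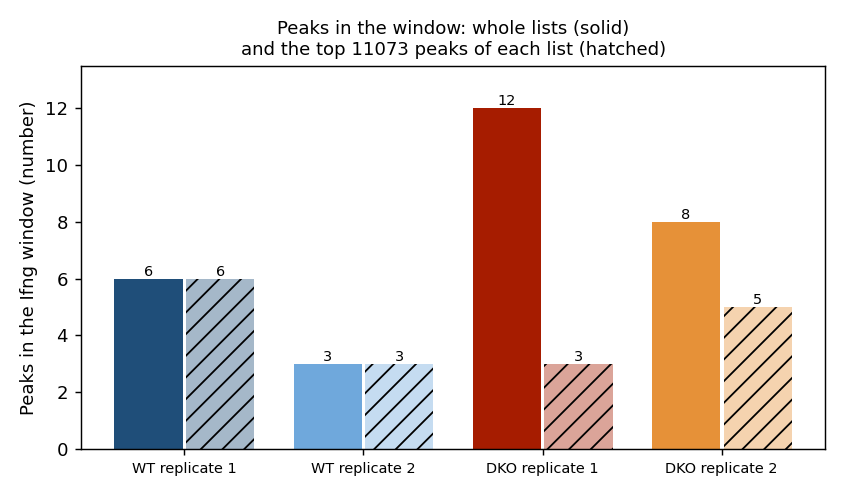
Number of peaks in the window in each library, from the whole deposited lists (solid bars) and from the 11073 peaks of highest −log10 p of each list (hatched bars). The DKO libraries exceed the WT libraries with whole lists, at 12 and 8 against 6 and 3, and do not with equal lists, at 3 and 5 against 6 and 3.

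By site, 3 of 13 were listed in all 4 libraries (23.1%), against a background of 20.7% of all merged regions. The promoter was the 1 site listed in both DKO libraries and neither WT library (7.69%), against a background of 14.3%. No site was listed in both WT libraries and neither DKO library, against a background of 0.631%. Of the others, 5 were listed in DKO replicate 1 alone (background 31.6%), 1 in DKO replicate 2 alone (background 4.3%), 1 in both replicates 1 alone (background 5.28%) and 2 in all libraries but WT replicate 2 (background 11.6%). With so few sites these shares lay near the background, and no class was read as particular to Ifng. With lists of equal length the promoter was listed in no library, and the weak site at 40.0 kb was listed in both WT libraries and neither DKO library. Leaving out a library loosens what a class asks for. Without WT replicate 1, 3 of 13 sites were in both DKO lists and not in WT replicate 2 (background 27.0%), and WT replicate 1 lists 2 of these. Without DKO replicate 1, 2 of 8 sites were in DKO replicate 2 and neither WT list (background 27.5%). Without DKO replicate 2, 6 of 12 sites were in DKO replicate 1 and neither WT list (background 48.1%), 5 of them in DKO replicate 1 alone. Without WT replicate 2, 5 of 13 sites were in the 3 lists left (background 32.7%).

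Both DKO libraries had peaks on chromosome Y (55 and 57) and neither WT library had any, so genotype and this difference in calls cannot be told apart in any comparison above. The lowest local background, which grows with read depth, was 1.5 and 1.47 fragments per position in WT and 1.23 and 1.15 in DKO. Read totals are not in the lists. Markers of CD8+ T cells and the deleted genes were not examined here, since no mm9 annotation was used.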

How the data were processed

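Peaks of 4 DNase-seq libraries (2 WT, 2 DKO) were used as deposited, 1 list per library. Per the submitters' processing notes, Bowtie2 2.2.5, FastQC and MACS2 2.1.1 were used with build mm9; settings, a control library and duplicate handling were not given in the sources used here. For each peak the authors deposited a fold, the −log10 of p and q, a score of 10 times the −log10 q, and the summit. The fold was taken as the ratio of summit pileup to local background, with 1 added to each. A fold or rank was read within its list only. Positions were converted to count from 1. Pileup and background were solved from fold and −log10 p, for peaks with −log10 p under 250, within 0.01, and the solution was tested on simulated data. Classes count from the gene bounds (5 and 50 kb). By rule, the sites given with values in each library were those listed in at least 2 libraries, the peak nearest to the gene start and the strongest peak of each library; those listed in 1 library are given too. The window and these choices were made with earlier results of these data known. Shares of peaks of like fold and the motifs were chosen after the peaks were seen. Tools were Python 3.11.15, pandas 2.3.3, numpy 2.4.6, scipy 1.17.1 and matplotlib 3.10.9.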

Additional observations from a re-analysis of the deposited data

How the results depend on the processing

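Placing peaks by summit or by any overlap with the window changed none of the 4 genotype results, and moving the gene bounds by 500 bp either way changed none of the 3 shares by distance. Merging peaks within 500 bp changed none of the 3 counts of sites, and asking for summits within 150 bp left 2 sites shared by all libraries. A −log10 q of at least 5 or 10 raised the log2 ratio of peak numbers from 1.15 to 1.25 or 1.70, with 3 and 1 WT peaks against 8 and 5 DKO peaks at 10. At 5 the sites listed in both DKO libraries alone stayed at 1 and those in all libraries fell from 3 to 2. At 10 the sites listed in both DKO libraries alone fell to 0 and those in all libraries to 1. At equal list lengths the log2 ratio of peak numbers was -0.17, with 0 sites in both DKO libraries alone and 1 in both WT libraries alone; the construction of this setting, which removes peaks from 3 of the lists, bears on all 3 values. Leaving out 1 library gave log2 ratios from 0.74 (without WT replicate 2) to 1.74 (without WT replicate 1), 1 to 6 sites in every DKO list left and no WT list left, 0 in the opposite class and 3 to 5 in all lists left; with fewer lists to satisfy, these classes can only grow, and the 6, without DKO replicate 2, rest on DKO replicate 1. No permutation p can go below 0.33 with 2 or 1 libraries in a group, so none bears on stability. With the replicate number as a block the log2 ratio was 1.21 (exact sign permutation p = 0.50, the smallest for 2 pairs); the labels do not say that a number marks a shared animal or day. An absent peak means that the site missed the thresholds of its list and may still be open. Read totals are unknown. The lowest background was higher in the WT lists (1.5 and 1.47) than in the DKO lists (1.23 and 1.15). It can depend on peak-calling settings, which were not given, as well as on depth, so it was not read as a difference in depth.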

Other observations

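The stretches on either side of the window differed from each other. The 180 kb before it, 117600001 to 117780000, held no peak in any library, as did 50.6% of 14648 stretches of that width on a fixed grid. The 180 kb after it, 117960001 to 118140000, held 10 regions, with 4 peaks in each WT library, 8 in DKO replicate 1 and 3 in DKO replicate 2, so DKO replicate 2 had the fewest there. The 13 sites of the Ifng window were more than 96.2% of the grid stretches held. In the stretch after the window, 1 region (118070497 to 118070901, 193 kb after the gene start) was listed in all 4 libraries, with folds of 5.65 and 5.67 in WT and 10.5 and 5.11 in DKO. The region 152 kb after the gene start, 118029831 to 118029935, was listed in both DKO libraries alone, with folds of 9.01 and 6.82. The region 116 kb after it, 117993611 to 117993840, was listed in both WT libraries alone, with folds of 5.83 and 5.99. Each of these classes held 1 of the 10 regions, against backgrounds of 20.7, 14.3 and 0.631% of all merged regions, in the order given. With so few regions, no class was read as particular to this stretch. No gene is assigned to these regions.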
